A study of Mus musculus with 20 samples.

Results

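CD11cint cells sorted from the spleen of March1-/- mice were compared with B cells sorted from the spleen of wild-type (WT) mice. The comparison takes the 4 CD11cint libraries and the 4 WT B cell libraries, which are 8 of the 20 libraries of the series. CD11cint cells have intermediate CD11c and CD8 on their surface and carry CD24. The 4 March1-/- B cell libraries enter as a second set of B cells, because genotype and sort differ together between CD11cint cells and WT B cells. All mice were C57BL/6 at postnatal day 21. CD11cint cells of WT mice were not analysed here, and the labels do not give which part of March1 the allele lacks, how many mice stand behind a library, or whether libraries of 1 group are from different animals. A p-value here therefore measures only how far these libraries spread, which may be technical. Xist, transcribed from the inactive X chromosome, was at 232 to 965 CPM (read counts scaled to the library total) in the CD11cint libraries and 426 to 1081 CPM in the WT B libraries. The Y-linked gene Ddx3y was at 43.8 to 94.6 CPM in the same CD11cint libraries and 43.4 to 85.7 CPM in the same WT B libraries, so RNA typical of both sexes was present in all 8 libraries.

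Marginal zone B cells sit at the border of the splenic white pulp, carry high levels of complement receptor CD21 (the product of Cr2) and CD1d, and take up blood-borne antigen. Their development depends on Notch2 signalling, in which the freed intracellular part of the receptor joins the DNA-binding protein RBPJ and switches on genes such as Hes1, Hes5 and Dtx1. Follicular B cells recirculate through lymphoid follicles and carry IgD and CD23. MARCH1 is a ubiquitin ligase that marks surface MHC class II and CD86 of antigen-presenting cells for removal. The series asks about trogocytosis, the transfer of membrane to marginal zone B cells from dendritic cells, and about complement C3 bound to MHC class II.

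Each library held 22491084 to 32751804 counts in genes, where 3 counts correspond to 0.0916 to 0.133 CPM. On the first principal component of the 12 CD11cint and B cell libraries, with 38% of the variance, CD11cint libraries lay at 30.07 to 55.59, March1-/- B libraries at −31.55 to −20.91 and WT B libraries at −19.97 to −5.374. CD11cint library 1 stood apart on the second component (16.5% of the variance), at 40.11 against −29.85 to −4.804 in the other 3, and March1-/- B library 1 lay near it at 35.52. In chi-square per gene, library 1 differed from the other CD11cint libraries by 45.8 to 71.3, and those differed among themselves by 7.1 to 12.3. Where leaving out this or another library moved the count of a list described here by over 1.5 times, the count without it is also given.

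The labelled population was checked against its markers. Of 15 pan-B genes, 12 did not pass the test against WT B, and the median log2 fold change was 0.13 (edgeR quasi-likelihood test, adjusted p under 0.05, on which a gene is called, or said to have risen or fallen). The early B cell factor gene Ebf1 rose by 0.31 ± 0.08 and the adaptor gene Blnk by 0.32 ± 0.08 on the log2 scale (± SE; edgeR adjusted p = 0.0104 and 0.00857). Cr2, the marker given for these cells, rose and is described with the marginal zone genes. Itgax, which encodes CD11c, was at 8.32, 12.4, 9.23 and 12.7 CPM in CD11cint cells and 7.69, 15.6, 11 and 16.9 CPM in WT B cells, so that the groups overlapped (log2 fold change −0.26 ± 0.20, edgeR adjusted p = 0.431). Cd24a overlapped as well, at 662 to 789 CPM in CD11cint cells and 714 to 849 CPM in WT B cells (−0.10 ± 0.08, edgeR adjusted p = 0.449). Cd8a was at 4.21 to 6.42 CPM in CD11cint cells and 0.58 to 1.44 CPM in WT B cells, a 4.89-fold difference (2.29 ± 0.18, edgeR adjusted p = 1.50e-08). March1, on chromosome 8, was at 119 to 134 CPM in CD11cint cells and 137 to 158 CPM in WT B cells (−0.21 ± 0.07, edgeR adjusted p = 0.0651, and 0.0283 with the replicate number as a block among the March1-/- libraries). March1 was not called in 16 of the 21 other settings. Beside that block, it was called by DESeq2 (DESeq2 adjusted p = 0.0499) and with the block over all 5 groups (edgeR adjusted p = 0.0142). It was also called without March1-/- B library 2 or 4 (edgeR adjusted p = 0.0451 and 0.0498). A count over the whole gene does not check the genotype.

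Of 17746 genes tested off chromosome 8, 2459 (13.9%) were called in CD11cint cells against WT B cells. Of these, 1038 (5.85% of the genes tested) were higher and 1421 (8.01%) lower, and 142 were at least 2-fold higher and 506 at least 2-fold lower. The counts of the gene lists below are to be read beside these shares. The median log2 fold change over all genes tested was 0.01. Without CD11cint library 1, 777 genes were called higher and 1122 lower. Without WT B library 2 the counts were 638 and 1024, and without WT B library 3 they were 656 and 1142. Against March1-/- B cells, CD11cint cells had 4387 genes called (24.7%), 2206 higher (12.4%) and 2181 lower (12.3%).

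Of the 2459 genes called against WT B, 2391 (97.2%) had the same sign against March1-/- B, called or not. Over all genes tested the signs were the same in 14216 of 17746. In all, 1980 were called with the same sign in both comparisons, 862 higher and 1118 lower. They make up 80.5% of the genes called against WT B and 45.1% of those called against March1-/- B. Among the 1980, the difference was larger against March1-/- B in 1528 and larger against WT B in 449. Another 473 genes were called against WT B and not against March1-/- B, and 6 were called in both with opposite signs. The comparisons share the CD11cint libraries, so these counts describe them and carry no test. The test of the difference between them is March1-/- B against WT B, which called 794 genes (4.47%). The replicate numbers paired the CD11cint and March1-/- B libraries but not the WT B libraries. With the number as a block among the March1-/- libraries, 3839 genes were called against WT B, 1672 higher and 2167 lower. In that fit 2985 were called with the same sign in both comparisons, 10 with opposite signs and 844 against WT B alone, and 1338 were called in March1-/- B against WT B. The block takes the spread shared by same-numbered March1-/- libraries out of the error, although the WT B libraries have no such pairs. For comparisons with WT B its p-values can therefore be too small, including those given with it for March1, Cxcr4 and Cd74.

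**Figure D1:**
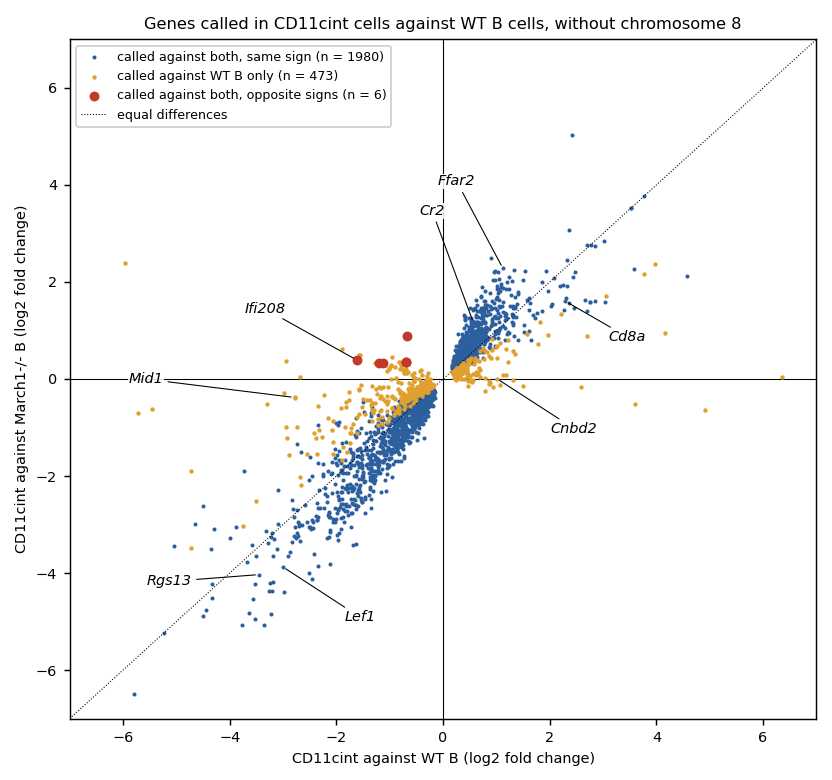
Log2 fold change of CD11cint cells over WT B cells (x axis) and over March1-/- B cells (y axis) for the 2459 genes called against WT B off chromosome 8, each point a gene. Blue points (1980 genes) were called in both with the same sign, orange points (473) against WT B alone and the red points (6) in both with opposite signs, and the dotted line marks equal differences.

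Genes of the marginal zone program were higher in CD11cint cells. Of 15 genes on the list, 14 rose and 1, the cholesterol exporter gene Abca1, fell (−0.59 ± 0.13, edgeR adjusted p = 0.00281). The median log2 fold change was 0.56, against 0.01 over all genes tested. All 15 were called with the same sign against March1-/- B, where the median was 1.15 and each of the 15 differences was larger. In March1-/- B against WT B, 10 of the 15 were called lower and the median was −0.58.

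Cr2 (ENSMUSG00000026616, chr1:195136811-195176716, minus strand, GRCm38) was at 2493, 3418, 3262 and 3271 CPM in CD11cint libraries, 1328, 1938, 1199 and 1129 CPM in March1-/- B cells and 2275, 1891, 1956 and 2252 CPM in WT B cells. Every CD11cint library lay above every B cell library, with library 1 the lowest of the 4. The difference from WT B was 0.57 ± 0.14 on the log2 scale, or 1.49-fold (edgeR adjusted p = 0.00952), and that from March1-/- B was 1.15 (edgeR adjusted p = 3.73e-06).

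Cd1d1, Asb2 and S1pr3 differed more from WT B than Cr2 did. Cd1d1, which encodes the lipid-presenting molecule CD1d, was at 244, 215, 234 and 289 CPM in CD11cint cells and 140, 101, 107 and 139 CPM in WT B cells (1.01 ± 0.12, edgeR adjusted p = 2.53e-06). Asb2, a subunit of a ubiquitin ligase, was at 63.6 to 76.9 CPM in CD11cint cells and 26.9 to 44.7 CPM in WT B cells (0.96 ± 0.14, edgeR adjusted p = 4.84e-05). S1pr3, a receptor for sphingosine-1-phosphate, was at 198 to 225 CPM in CD11cint cells and 98.3 to 150 CPM in WT B cells (0.79 ± 0.12, edgeR adjusted p = 7.45e-05). The groups did not overlap for any of these genes. Myof rose by 0.78 ± 0.12, the semaphorin gene Sema7a by 0.58 ± 0.10, the tetraspanin gene Cd9 by 0.56 ± 0.09 and S1pr1, another receptor for sphingosine-1-phosphate, by 0.41 ± 0.11 (edgeR adjusted p at most 0.0114).

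The rises of Dtx1, Mzb1, Plac8, Cd36, Fcrl5 and Pld4 depended on the libraries or the fit. Of the 14 rises, 8 were called in all 21 other settings tried. Without CD11cint library 1, 11 of the list remained called higher and the median was 0.54. Without WT B library 2 there were 9, and without the 3 March1-/- libraries numbered 1 there were also 9. Mzb1 and Plac8 were each lost without CD11cint library 1 or WT B library 2, 3 or 4 (edgeR adjusted p up to 0.0747 and 0.151), and Cd36 without WT B library 2 (edgeR adjusted p = 0.0508). Fcrl5 was lost without CD11cint library 4 or WT B library 2, 3 or 4 (edgeR adjusted p up to 0.116). Pld4 was lost without CD11cint library 1, 3 or 4, March1-/- B library 3 or WT B library 2 or 3 (edgeR adjusted p up to 0.154). Mzb1 shares 57.2% of its exon bases with another gene on the same strand, so its counts are uncertain.

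**Figure D2:**
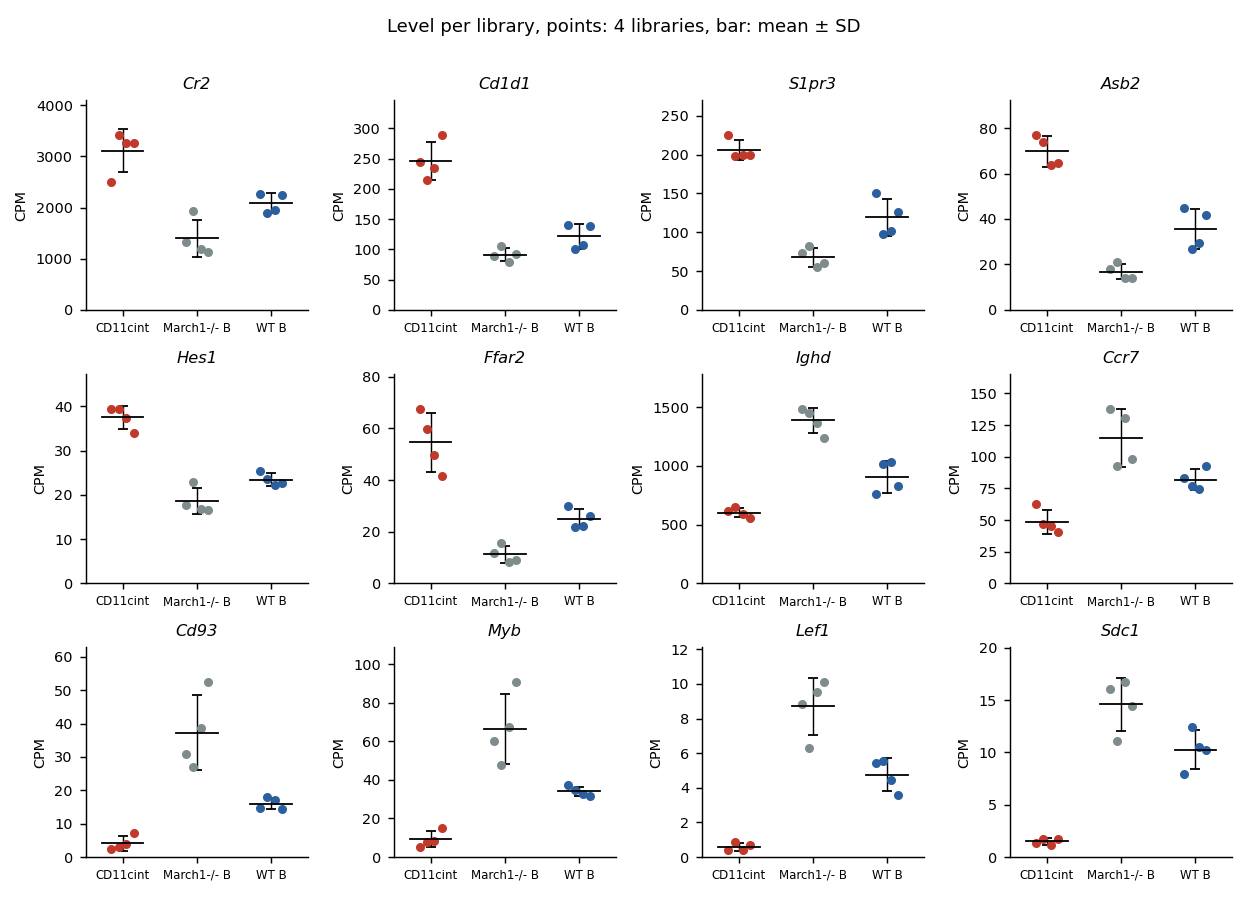
Level in CPM (y axis, from 0) of 12 genes in the 4 CD11cint, 4 March1-/- B and 4 WT B libraries. Each point is a library, and the bar and whiskers are the mean ± SD. For Cr2, Cd1d1, S1pr3, Asb2, Hes1 and Ffar2 every CD11cint point lies above every B cell point, and for Ighd, Ccr7, Cd93, Myb, Lef1 and Sdc1 every CD11cint point lies below.

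The Notch pathway list held 13 tested genes, of which 4 rose and none fell; the other 9 did not pass the test. The list median was 0.08 on the log2 scale. The same 4 were called higher against March1-/- B, and none was called lower there. The 4 were the transcriptional repressors Hes1 and Hes5, the Notch regulator Dtx1 and the coactivator Maml2. Hes1 was at 39.4, 39.5, 37.3 and 33.9 CPM in CD11cint cells and 25.4, 23.6, 22.2 and 22.7 CPM in WT B cells, without overlap (0.68 ± 0.09, edgeR adjusted p = 1.89e-05). Hes5 was at 7.81 to 10.5 CPM in CD11cint cells and 5.28 to 7.31 CPM in WT B cells (0.65 ± 0.16, edgeR adjusted p = 0.00728), but 31.8% of its exon bases are shared with a gene on the opposite strand. Dtx1 was at 751, 653, 658 and 590 CPM in CD11cint cells and 469, 356, 359 and 414 CPM in WT B cells (0.73 ± 0.18, edgeR adjusted p = 0.00978). Without the 3 March1-/- libraries numbered 1, Dtx1 was no longer called (edgeR adjusted p = 0.0677). Maml2 rose by 0.42 ± 0.09 (edgeR adjusted p = 0.00311). The receptor itself and its DNA-binding partner were not called, with Notch2 at 311 to 465 CPM in CD11cint cells and 365 to 418 CPM in WT B cells (0.08 ± 0.12, edgeR adjusted p = 0.724) and Rbpj at 43.4 to 65.1 CPM and 46.8 to 52.2 CPM in the same order (0.13 ± 0.09, edgeR adjusted p = 0.399).

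The 250 bases before the RefSeq starts of Hes5 and Cr2 are shown because both genes rose and both stretches hold the letters GTGGGAA, the core to which RBPJ is known to bind. The sequences are from RefSeq on GRCm38.p6, 5′ to 3′ on the strand of the gene, with the matches on either strand in capitals (TTCCCAC is the match on the other strand). Hes5 lies at chr4:154960673-154960922 on the plus strand, with matches starting at −226 and −83 from the gene's start, and Cr2 at chr1:195176720-195176969 on the minus strand, with a match at −221.
Hes5: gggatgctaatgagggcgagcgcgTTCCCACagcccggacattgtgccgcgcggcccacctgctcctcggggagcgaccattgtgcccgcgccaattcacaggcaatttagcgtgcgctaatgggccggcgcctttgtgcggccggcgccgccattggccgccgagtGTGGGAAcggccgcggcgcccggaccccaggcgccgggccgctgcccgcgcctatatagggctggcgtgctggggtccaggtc
Cr2: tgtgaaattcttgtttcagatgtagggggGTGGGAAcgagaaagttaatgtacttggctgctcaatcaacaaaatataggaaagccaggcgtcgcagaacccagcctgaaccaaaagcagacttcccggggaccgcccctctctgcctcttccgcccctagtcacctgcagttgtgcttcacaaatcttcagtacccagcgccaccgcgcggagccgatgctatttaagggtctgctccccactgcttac
In a longer window of 300 bases, which adds the first 50 bases after the start, 6.38% of 32851 promoters held these letters on either strand. They were in 3 of 13 promoters of 11 genes of the Notch list (those of Hes5, Lfng and Spen). They were also in 2 of 14 promoters of 12 genes of the marginal zone list (those of Cd9 and Cr2). The other genes of these lists, among them Hes1, had no promoter in the set searched. A match is a description of the letters and not evidence of binding.

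Some genes of follicular and recirculating B cells were lower. Of 6 tested genes on the follicular list off chromosome 8, 3 fell and the other 3 did not pass the test. The list median was −0.44. Against March1-/- B, 4 of the 6 were called lower and 1 higher, with a median of −0.90. Signs were the same in both comparisons for 5 of the 6. Ighd, which encodes the IgD heavy chain, was at 614, 646, 587 and 556 CPM in CD11cint libraries, 1486, 1450, 1368 and 1239 CPM in March1-/- B cells and 761, 1016, 1030 and 827 CPM in WT B cells (−0.60 ± 0.11 against WT B, edgeR adjusted p = 0.000845). CD11cint libraries were the lowest, March1-/- B libraries the highest, and the 3 groups did not overlap. The lymph-node homing receptor gene Ccr7 was at 40.9 to 62.5 CPM in CD11cint cells and 74.2 to 93 CPM in WT B cells (−0.75 ± 0.19, edgeR adjusted p = 0.0131). The integrin subunit gene Itgb7 was at 28.2 to 44.6 CPM in CD11cint cells and 60 to 82.6 CPM in WT B cells (−0.91 ± 0.16, edgeR adjusted p = 0.000468).

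Further follicular genes lie on chromosome 8 and were left out of the counts. Fcer2a, which encodes CD23, was at 156 to 186 CPM in CD11cint cells and 263 to 381 CPM in WT B cells (−0.99 ± 0.11, edgeR adjusted p = 1.16e-06). Klf2, a factor that maintains the recirculating state, was at 24.3 to 47.3 CPM in CD11cint cells and 88 to 102 CPM in WT B cells (−1.50 ± 0.25, edgeR adjusted p = 0.000542). Both groups of libraries were apart for each gene. Chromosome 8, which carries March1, held 964 tested genes, of which 166 (17.2%) were called in this comparison.

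Of 13 genes that place B cells within the spleen, 2 rose, 6 fell and the other 5 were not called. In the comparison with March1-/- B cells 4 were called higher and 5 lower. Called with the same sign in both comparisons were 5 of the 13. S1pr1 and S1pr3 rose, whereas S1pr4, another receptor for sphingosine-1-phosphate, fell (−0.58 ± 0.09, edgeR adjusted p = 0.000134). The chemokine receptor gene Ccr6 was at 44.5, 72.1, 65.5 and 58 CPM in CD11cint libraries, 50.8, 77.1, 54.6 and 52.8 CPM in March1-/- B cells and 86.2, 90.5, 81.7 and 86.9 CPM in WT B cells. CD11cint cells lay below WT B cells without overlap (−0.52 ± 0.14, edgeR adjusted p = 0.013) and overlapped with March1-/- B cells (0.03, edgeR adjusted p = 0.916). Cxcr4 varied within groups, at 20 to 89.3 CPM in CD11cint cells and 65 to 95.4 CPM in WT B cells (edgeR adjusted p = 0.314, and 0.00243 with the block among the March1-/- libraries).

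Genes of immature B cells were lower, with the lowest median of the B cell lists. Newly formed B cells carry the C1q receptor-like protein CD93 on leaving the bone marrow. Of 9 tested genes (5 others were not tested for low counts), 8 fell and Cd24a was not called, and the list median was −1.88. Cd93 was at 2.36, 2.9, 3.91 and 7.35 CPM in CD11cint libraries, 30.9, 27.1, 38.8 and 52.4 CPM in March1-/- B cells and 14.8, 18, 17 and 14.3 CPM in WT B cells (−1.95 ± 0.28 against WT B, edgeR adjusted p = 7.02e-05). The progenitor transcription factor gene Myb was at 5.32, 7.86, 8.54 and 15.3 CPM in CD11cint cells and 37.1, 34.9, 32.5 and 31.9 CPM in WT B cells (−1.88 ± 0.22, edgeR adjusted p = 1.12e-05). In both genes CD11cint libraries were the lowest and March1-/- B libraries the highest, with no overlap. Lef1, a transcription factor of early B cell precursors, was at 0.386 to 0.865 CPM in CD11cint cells and 3.57 to 5.56 CPM in WT B cells (−3.01 ± 0.28, edgeR adjusted p = 1.35e-07). Gfi1, a transcriptional repressor, fell by 2.12 and Il7r, the receptor for interleukin-7, by 1.02 in log2 units (edgeR adjusted p = 1.15e-05 and 0.00446). Of the 8 falls, 6 were called in all 21 other settings. In March1-/- B against WT B, 7 of these genes were called higher.

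**Figure D3:**
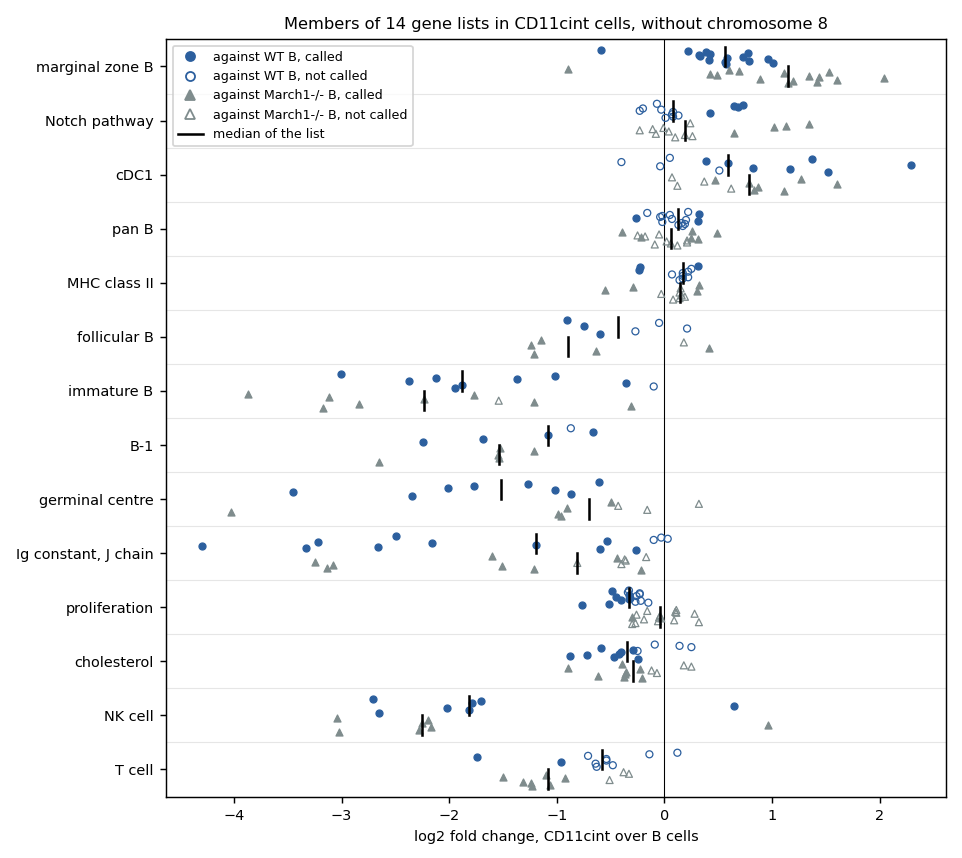
Log2 fold change (x axis) of the members of 14 gene lists in CD11cint cells against WT B cells (blue circles, upper row of each list) and against March1-/- B cells (grey triangles, lower row). Filled symbols were called, open symbols were not, and black bars are list medians, which were 0.56 and 1.15 for marginal zone B cells and −1.52 and −0.71 for germinal centre genes.

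Of 11 tested genes of type 1 conventional dendritic cells (cDC1) off chromosome 8, 7 rose and none fell, and the list median was 0.59. The other 4, Clec9a, Wdfy4, Itgae and Ifi205, were not called. Irf8, also on the list, lies on chromosome 8 and was left out of these counts. Among the 7 rises, Cd8a encodes a surface marker that defines CD11cint cells, so it is not independent of the sort. In the comparison with March1-/- B cells 7 of the 11 were called higher, and 6 were called higher in both comparisons. The 11 genes summed to 784 to 1025 CPM in CD11cint libraries, 752 to 891 CPM in March1-/- B cells and 891 to 977 CPM in WT B cells. The sums of CD11cint and WT B libraries thus overlapped. Of 4 genes shared by conventional dendritic cells, 1 rose and none fell, with a median of −0.15. Without CD11cint library 4, 1 of these was called lower as well. Of 4 tested genes of type 2 conventional dendritic cells, none was called by edgeR, DESeq2 or limma-voom, and the median was −0.09. Levels of Xcr1 and Cd8a were low beside those of cDC1. Xcr1, a chemokine receptor that marks cDC1, was at 3.7, 4.02, 2.92 and 3.43 CPM in CD11cint cells and 1.02, 1.5, 1.23 and 1.17 CPM in WT B cells (1.52 ± 0.15, edgeR adjusted p = 3.05e-07). It averaged 788 ± 44 CPM in March1-/- cDC1, and Cd8a averaged 5.53 ± 1.06 CPM in the CD11cint libraries and 944 ± 22 CPM in March1-/- cDC1 (SD, n = 4 each). The Toll-like receptor gene Tlr11 rose by 1.37 ± 0.16, the cDC1 factor gene Batf3 by 1.17 ± 0.27, Id2, an inhibitor of E proteins, by 0.59 ± 0.13 and the lipid amidase gene Naaa by 0.39 ± 0.08 (edgeR adjusted p at most 0.0051). The rise of the adhesion gene Cadm1 (0.82 ± 0.25, edgeR adjusted p = 0.0297) was lost without CD11cint library 1, 2 or 3 or WT B library 1 or 2 (edgeR adjusted p up to 0.0875). Tlr3, a sensor of double-stranded RNA encoded on chromosome 8, was at 43.1 to 54.4 CPM in CD11cint cells and 19.5 to 30.6 CPM in WT B cells (1.08 ± 0.17, edgeR adjusted p = 0.000215). In a bulk library, a share of cDC1 among the sorted cells and a low level of cDC1 RNA in each cell cannot be told apart. The part of cDC1 in these levels was not tested.

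Most markers of cell types other than B cells and cDC1 were lower or did not pass the test. Of 7 NK cell genes 6 fell, and the 7 summed to 11.8 to 25.7 CPM in CD11cint libraries, 22.2 to 75.5 CPM in March1-/- B cells and 22.5 to 50.6 CPM in WT B cells. The NK receptor gene Ncr1 was at 0.177 to 0.881 CPM in CD11cint cells and 1.74 to 5.56 CPM in WT B cells (−2.65 ± 0.58, edgeR adjusted p = 0.00384), and the NK transcription factor gene Eomes fell by 2.71 in log2 units (edgeR adjusted p = 3.35e-05). The pore-forming protein gene Prf1 was the exception, higher by 0.65 ± 0.19 (edgeR adjusted p = 0.0246). That call was lost without CD11cint library 1 or WT B library 2, 3 or 4 (edgeR adjusted p up to 0.122). All 7 NK cell genes were called with the same sign against March1-/- B.

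Of 10 T cell genes, Lck (−0.96 ± 0.11) and Cd28 (−1.74 ± 0.26) fell and 8 did not pass the test. The T cell list summed to 35.5 to 43.7 CPM in CD11cint cells and 64.1 to 80.7 CPM in WT B cells. In the comparison with March1-/- B cells 7 of the 10 were called lower, Lck and Cd28 among them. Of 5 plasmacytoid dendritic cell genes 3 fell, among them Siglech at 2.32 to 6.96 CPM in CD11cint cells and 6.79 to 31.4 CPM in WT B cells. Of 10 macrophage genes 3 fell and 1 rose, and of 8 monocyte genes 2 fell. Without WT B library 1, 5 macrophage genes were called lower, and the rise was lost without any 1 CD11cint library or WT B library 1, 2 or 4. Without WT B library 2, 1 monocyte gene was called lower. Adgre1, a macrophage surface receptor, was at 2.33 to 3.89 CPM in CD11cint cells and 7.37 to 13.2 CPM in WT B cells (−1.69 ± 0.19, edgeR adjusted p = 1.97e-06). None of 7 neutrophil and 6 erythroid genes was called by edgeR, DESeq2 or limma-voom, and 0 had an unadjusted p under 0.05 in edgeR. The erythroid genes summed to 1652 to 4770 CPM in CD11cint cells and 2004 to 4130 CPM in WT B cells. The part of these cell types in the gene groups described here was not tested.

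Germinal centre genes fell in CD11cint cells against WT B, all 8 of 8, and the list median was −1.52. Against March1-/- B, 5 of the 8 were called lower and the median was −0.71. Germinal centres are the sites where activated B cells divide, mutate their antibody genes and switch class. Rgs13, a regulator of chemokine receptor signalling in germinal centre B cells, was at 0.564, 0.79, 1.37 and 0.707 CPM in CD11cint libraries, 13.9, 10.3, 15.9 and 15.2 CPM in March1-/- B cells and 9.58, 9.82, 9.31 and 8.3 CPM in WT B cells (−3.45 ± 0.20, edgeR adjusted p = 5.54e-11). CD11cint libraries were the lowest of the 3 groups and March1-/- B libraries the highest. Mybl1 fell by 2.01, Gcsam by 1.27, Bcl6, the master repressor of the germinal centre, by 0.87 and the DNA glycosylase gene Neil1 by 0.61 in log2 units (edgeR adjusted p at most 0.0026). All 8 falls were called in each of the 21 other settings. Against March1-/- B, Gcsam had the opposite sign and was not called (0.32, edgeR adjusted p = 0.396). In March1-/- B against WT B, 5 of the 8 genes were called lower and 1 higher, with a median of −0.98.

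Of 13 genes of immunoglobulin constant regions and the J chain 10 fell, and the list median was −1.19. The fall was largest for switched isotypes. Ighg2b was at 29.5, 26.5, 27.6 and 20.8 CPM in CD11cint libraries, 68.6, 64.3, 114 and 49.9 CPM in March1-/- B cells and 112, 183, 217 and 148 CPM in WT B cells (−2.66 ± 0.24 against WT B, edgeR adjusted p = 7.69e-07). Ighg1 was at 1.65 to 3.18 CPM in CD11cint libraries, 12.9 to 32.1 CPM in March1-/- B cells and 18.9 to 31.6 CPM in WT B cells (−3.33 ± 0.31, edgeR adjusted p = 4.57e-07). The CD11cint libraries were the lowest in both. Ighg2c fell by 4.30 ± 0.71, Igha by 2.16 ± 0.44, Ighg3 by 1.19 ± 0.18 and Ighe by 3.22 ± 0.56 in log2 units (edgeR adjusted p at most 0.00304), although 2 CD11cint libraries had no Ighe count. Against March1-/- B, Igha and Ighg3 were not called (−0.81, edgeR adjusted p = 0.194, and −0.40, edgeR adjusted p = 0.116). The μ chain gene Ighm was at 6096 to 7449 CPM in CD11cint cells and 7154 to 8224 CPM in WT B cells (−0.26 ± 0.07, edgeR adjusted p = 0.0193), and the κ chain gene Igkc fell by 0.53 (edgeR adjusted p = 0.0307). Both calls were lost without CD11cint library 2 or 3 or WT B library 2 or 3, and that of Igkc also without CD11cint library 4 or WT B library 4 (edgeR adjusted p up to 0.0788 for Ighm and 0.0998 for Igkc). Of 208 immunoglobulin variable segments tested, 107 fell and none rose. The segments resemble each other closely, so counts of single segments are uncertain.

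Jchain, which joins IgM and IgA into polymers, was at 51.5, 63.5, 44.7 and 42.7 CPM in CD11cint libraries, 160, 189, 188 and 77.8 CPM in March1-/- B cells and 141, 351, 329 and 319 CPM in WT B cells (−2.49 ± 0.32 against WT B, edgeR adjusted p = 4.78e-05). Sdc1, which encodes the plasma cell marker CD138, was at 1.34, 1.77, 1.12 and 1.77 CPM in CD11cint cells and 7.89, 12.4, 10.5 and 10.2 CPM in WT B cells (−2.76 ± 0.22, edgeR adjusted p = 1.50e-08). Of 7 plasma cell genes 3 fell. Of 5 B-1 cell genes 4 fell, among them Spn, the sialophorin CD43 (−2.24 ± 0.15, edgeR adjusted p = 3.94e-09), and Zbtb32 (−1.69 ± 0.17, edgeR adjusted p = 3.24e-07). On the list for CD11c+ T-bet+ B cells, 4 of 6 genes fell, including Tbx21, which encodes T-bet, at 2.15 to 3.01 CPM in CD11cint cells and 6.24 to 10.1 CPM in WT B cells (−1.62 ± 0.17, edgeR adjusted p = 4.96e-07). Against March1-/- B, 2 of the 6 were called lower, 1 of them also called against WT B, and 3 of the 6 were called lower in March1-/- B against WT B.

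Among complement genes 2 rose and 3 fell of 11 tested, with a median log2 fold change of −0.12. Beside Cr2, Cd59a, an inhibitor of the terminal complement complex, rose to 10.3, 8.08, 8.93 and 10 CPM in CD11cint cells, against 2.5, 2.13, 2.67 and 3.06 CPM in WT B cells (1.85 ± 0.18, edgeR adjusted p = 3.09e-07). Cd55, which speeds the decay of C3 convertases, fell to 124, 125, 124 and 129 CPM in CD11cint libraries, against 352, 373, 366 and 286 CPM in March1-/- B cells and 191, 268, 265 and 253 CPM in WT B cells (−0.96 ± 0.12 against WT B, edgeR adjusted p = 7.62e-06). The 2 regulators thus moved in opposite directions, each with no overlap between CD11cint and WT B libraries. C3 was at 3.84 to 5.08 CPM in CD11cint cells and 2.79 to 7.25 CPM in WT B cells (−0.12 ± 0.25, edgeR adjusted p = 0.8). Itgam, a chain of complement receptor 3, fell by 0.96 (edgeR adjusted p = 5.23e-05), but 68.7% of its exon bases are shared with another gene on the same strand.

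Of 11 MHC class II presentation genes, 8 did not pass the test, and the median was 0.17. H2-Aa, an MHC class II chain, was at 3179, 2580, 2420 and 2234 CPM in CD11cint cells and 2333, 2424, 2382 and 2309 CPM in WT B cells (0.14 ± 0.09, edgeR adjusted p = 0.324). Cd74, the invariant chain, was at 9557, 6945, 6506 and 5872 CPM in CD11cint cells and 6096, 6089, 5961 and 6083 CPM in WT B cells (0.25 ± 0.11, edgeR adjusted p = 0.131, and 0.0292 with the block among the March1-/- libraries). Library 1 was the highest CD11cint library for both. The called genes were the protease gene Ctss (0.31 ± 0.09), the peptide-exchange inhibitor gene H2-Ob (−0.24 ± 0.07) and the transactivator gene Ciita (−0.23 ± 0.07), and none of these calls held in all settings. Ctss was lost without CD11cint library 1 or 2 or WT B library 1, 2 or 4 (edgeR adjusted p up to 0.103), and H2-Ob without WT B library 2 or 3 (up to 0.0617). Ciita was lost without CD11cint library 1 or 4 or WT B library 2, 3 or 4 (edgeR adjusted p up to 0.112). Without CD11cint library 4, edgeR called 4 class II genes higher. Of 9 costimulation genes 1 rose and 3 fell. Without CD11cint library 1 or WT B library 2, 1 was called lower, and without CD11cint library 4 or March1-/- B library 4, 2 were called higher. Cd274, the inhibitory ligand PD-L1, was at 124 to 142 CPM in CD11cint cells and 87.2 to 113 CPM in WT B cells (0.43 ± 0.09, edgeR adjusted p = 0.00141), and the activation marker gene Cd83 was at 102 to 122 CPM in CD11cint cells and 167 to 192 CPM in WT B cells (−0.70 ± 0.09, edgeR adjusted p = 7.41e-06). Cd86, whose protein MARCH1 removes from the surface, was at 51.5 to 58.6 CPM in CD11cint cells and 49.2 to 56.4 CPM in WT B cells (0.12 ± 0.07, edgeR adjusted p = 0.285).

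Some proliferation genes were lower than in WT B. Of 16 tested off chromosome 8, 8 fell against WT B (median −0.33) and 1 against March1-/- B (median −0.04). In March1-/- B against WT B, which tests the difference between these comparisons, 2 of the 16 were called lower. Mki67, a marker of cycling cells, was at 91.4, 157, 186 and 225 CPM in CD11cint libraries, 161, 166, 222 and 261 CPM in March1-/- B cells and 282, 288, 275 and 278 CPM in WT B cells (−0.77 ± 0.19 against WT B, edgeR adjusted p = 0.00909). All WT B libraries were above all CD11cint libraries, which spread more widely. Without CD11cint library 1 or WT B library 1 or 3, 4 of the list were called lower, and without CD11cint library 2 or 3 or WT B library 2, 5 were. The replication helicase gene Mcm6 fell by 0.45 (edgeR adjusted p = 0.00331), and Rrm2, a subunit of ribonucleotide reductase, by 0.49 (edgeR adjusted p = 0.0154, and 0.0708 without CD11cint library 1).

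Of 12 genes of cholesterol synthesis and efflux 8 fell and none rose, with a median of −0.34. Without CD11cint library 4, 1 of them was called higher. Sqle, which oxidises squalene, was at 10.4, 13.3, 10.3 and 10.6 CPM in CD11cint cells and 18, 21.4, 18.9 and 15.2 CPM in WT B cells, without overlap (−0.72 ± 0.12, edgeR adjusted p = 0.000167). Srebf2, the transcription factor that drives the pathway, fell by 0.29 (edgeR adjusted p = 0.00151). Against March1-/- B cells 8 of the 12 were called lower, and 7 were called lower in both comparisons. Of 10 immediate early genes 3 fell, among them Egr1 at 14.1 to 19.8 CPM in CD11cint cells and 45.2 to 57.6 CPM in WT B cells (−1.67 ± 0.29, edgeR adjusted p = 0.000786) and Egr3 (−0.81 ± 0.15, edgeR adjusted p = 0.00106).

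Of 15 genes of antigen receptor signalling, 3 were called higher and 2 lower, with a median of 0.04. Over all genes tested, 5.85% were called higher and 8.01% lower. A single gene was called lower without CD11cint library 1 or 3, March1-/- B library 2 or 3, or any WT B library. Cd81, a tetraspanin of the B cell coreceptor complex, rose by 0.45 ± 0.08 and the inhibitory receptor gene Cd72 fell by 0.34 ± 0.08 (edgeR adjusted p = 0.000609 and 0.00567). Cd72 shares 41.6% of its exon bases with a gene on the opposite strand. Of 8 Fc receptor genes 1 rose and 3 fell, and the rise was lost without CD11cint library 4 or WT B library 2, 3 or 4. Fcmr, the IgM Fc receptor, was at 382 to 458 CPM in CD11cint cells and 588 to 699 CPM in WT B cells (−0.67 ± 0.12, edgeR adjusted p = 0.00028), and Fcgrt, the neonatal Fc receptor, was at 3.48 to 4.51 CPM in CD11cint cells and 7.43 to 9.66 CPM in WT B cells (−1.10 ± 0.10, edgeR adjusted p = 1.24e-07).

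Of 17 transcription factor genes 3 rose and 5 fell, or 3 without WT B library 2. Bach2, a repressor of plasma cell differentiation, was at 27.7, 42.7, 47.7 and 45.3 CPM in CD11cint libraries, 115, 131, 158 and 128 CPM in March1-/- B cells and 75.3, 103, 91.2 and 89 CPM in WT B cells (−1.13 ± 0.14 against WT B, edgeR adjusted p = 8.03e-06). The 3 groups did not overlap. Runx3 rose by 0.31 and Nfatc1 fell by 0.30 (edgeR adjusted p = 0.00499 and 0.00405).

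On a list of 12 genes of Toll-like receptors and their partners off chromosome 8, which does not hold the cDC1 gene Tlr11, edgeR called none against WT B and 6 higher against March1-/- B. At an unadjusted p under 0.05, 3 of the 12 passed, and DESeq2 called 1 and limma-voom 0. Without CD11cint library 4, edgeR called 2 higher, and without CD11cint library 3 it called 1. The chaperone gene Pdia4 was the 1 called of 9 unfolded protein response genes, at 814 to 907 CPM in CD11cint cells and 551 to 644 CPM in WT B cells (0.53 ± 0.09, edgeR adjusted p = 0.00017). Of 7 MARCH ligase genes off chromosome 8, edgeR called 0, although 1 had an unadjusted p under 0.05 and DESeq2 and limma-voom each called 1. Of 12 interferon response genes 3 rose, and none of the 3 was called without CD11cint library 1 or WT B library 3. Isg15, a ubiquitin-like modifier, had an edgeR adjusted p of 0.0121, and 0.0568 without that library or 0.0539 without WT B library 3.

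The genes named next had the largest differences among protein-coding genes called with the same sign against both B cell groups, averaging 5 CPM or more in the higher group, and no overlap between CD11cint and WT B libraries. Of 470 such rises, the 12 largest were Cd8a, Apol7c, Cd59a, Trem1, Ackr3, Tspan15, Gml, Ube2e2, Serpine2, Sel1l3, Rundc3b and Ffar2. CD8 is a surface marker that defines CD11cint cells, so the rise of Cd8a is not independent of the sort. Apol7c, an apolipoprotein L gene, was at 13.6, 13.2, 7.25 and 9.68 CPM in CD11cint cells and 1.31, 2.1, 3.22 and 2.65 CPM in WT B cells (2.24 ± 0.23, edgeR adjusted p = 1.46e-06). It averaged 818 CPM in March1-/- cDC1, whereas Trem1, Ackr3, Tspan15 and Gml averaged 0.0347 to 0.636 CPM there. Ackr3, an atypical receptor for the chemokine CXCL12, was at 50.3, 31.9, 31.8 and 38.8 CPM in CD11cint libraries, 15.3, 12.8, 12.3 and 11.7 CPM in March1-/- B cells and 19.4, 10.2, 13.2 and 15.8 CPM in WT B cells (1.38 ± 0.16 against WT B, edgeR adjusted p = 2.90e-06). Here both B cell groups overlapped.

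Trem1, a receptor that amplifies myeloid activation, was at 8.83 to 11.6 CPM in CD11cint libraries, 1.84 to 3.64 CPM in March1-/- B cells and 3.13 to 3.95 CPM in WT B cells (1.51 ± 0.17 against WT B, edgeR adjusted p = 1.46e-06). Ffar2, which senses short-chain fatty acids, was at 67.6, 59.6, 49.7 and 41.6 CPM in CD11cint libraries, 11.8, 15.5, 8.42 and 9.23 CPM in March1-/- B cells and 29.9, 22, 22.4 and 26.1 CPM in WT B cells (1.12 ± 0.15, edgeR adjusted p = 3.42e-05). The tetraspanin gene Tspan15 was likewise lowest in March1-/- B cells, at 34.6 to 45.4 CPM in CD11cint libraries, 6.53 to 11.2 CPM in March1-/- B cells and 10.4 to 21.2 CPM in WT B cells (1.33 ± 0.19, edgeR adjusted p = 4.84e-05). Gml rose by 1.23, Ube2e2, a ubiquitin-conjugating enzyme, by 1.23, the serine protease inhibitor Serpine2 by 1.16, Sel1l3 by 1.16 and Rundc3b by 1.13 in log2 units (edgeR adjusted p at most 0.0025).

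Of 498 such falls, 11 of the 12 largest were Rgs13, Ahnak, Sspn, Sdc1, Nuggc, Slpi, Jchain, Spn, Myadm, Endou and Trib2. Ahnak, a giant scaffold protein beneath the plasma membrane, was at 9.94, 18, 22.6 and 18.9 CPM in CD11cint libraries, 136, 157, 212 and 123 CPM in March1-/- B cells and 124, 179, 161 and 179 CPM in WT B cells (−3.21 ± 0.22 against WT B, edgeR adjusted p = 9.93e-09). Myadm was at 4.69, 5.87, 5.41 and 4.95 CPM in CD11cint libraries, 26.3, 24, 28.7 and 20.4 CPM in March1-/- B cells and 22.9, 28.7, 24.5 and 20.9 CPM in WT B cells (−2.22 ± 0.11, edgeR adjusted p = 6.58e-12). For both genes the B cell groups overlapped and every CD11cint library was lower. Trib2, a pseudokinase, was at 5.5 to 6.96 CPM in CD11cint libraries, 37.2 to 45 CPM in March1-/- B cells and 24.9 to 29.5 CPM in WT B cells (−2.14 ± 0.11, edgeR adjusted p = 1.22e-11). Sspn, which encodes sarcospan, fell by 3.17, Nuggc, a nuclear GTPase of germinal centre B cells, by 2.73, the secreted protease inhibitor Slpi by 2.51 and the endoribonuclease Endou by 2.14 in log2 units (edgeR adjusted p at most 0.00256).

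Of the 473 genes called against WT B and not against March1-/- B, 107 were also called in March1-/- B against WT B. Among these, 33 protein-coding genes met the same level and overlap conditions and differed from WT B in the same direction in CD11cint and March1-/- B cells, 11 higher and 22 lower, and the 6 largest were Mid1, S1pr2, Cxcr3, Fas, Cnbd2 and Gm47283. Mid1, an X-linked ubiquitin ligase, was at 5.46, 2.93, 5.32 and 3.99 CPM in CD11cint libraries, 7.33, 4.85, 6.12 and 4.64 CPM in March1-/- B cells and 35.7, 22.8, 22.7 and 40.4 CPM in WT B cells (−2.78 ± 0.23 against WT B, edgeR adjusted p = 9.10e-08, and −0.38 against March1-/- B, edgeR adjusted p = 0.295). Fas, the death receptor, was at 3.69 to 4.1 CPM in CD11cint libraries, 3.93 to 5.08 CPM in March1-/- B cells and 6.85 to 8.72 CPM in WT B cells (−1.02 ± 0.15, edgeR adjusted p = 4.43e-05). Both March1-/- groups overlapped and lay below WT B for each of these genes.

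Cxcr3, a chemokine receptor gene, was at 2.36 to 3.16 CPM in CD11cint libraries, 2.88 to 3.67 CPM in March1-/- B cells and 6.99 to 9.61 CPM in WT B cells (−1.58 ± 0.12, edgeR adjusted p = 6.39e-09). S1pr2, which confines germinal centre B cells to the follicle, fell by 1.77 ± 0.26 (edgeR adjusted p = 7.41e-05). Cnbd2 rose to 224, 151, 158 and 163 CPM in CD11cint libraries, against 205, 159, 164 and 164 CPM in March1-/- B cells and 65.1, 80.3, 95 and 107 CPM in WT B cells (2-fold, edgeR adjusted p = 0.000116). Gm47283, on the Y chromosome, fell by 0.97 (edgeR adjusted p = 0.0206), with the opposite sign against March1-/- B (0.28, edgeR adjusted p = 0.506), and its call was lost without CD11cint library 1 or 2 or WT B library 1 or 4 (edgeR adjusted p up to 0.0739).

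The genes called in both comparisons with opposite signs were Ifi208, Trabd2b, Entpd4, Entpd4b, Gm16867 and Gm27177. All 6 were lower than in WT B and higher than in March1-/- B. Ifi208, of the interferon-inducible p200 family (chr1:173673675-173698395), was at 15.3, 21.4, 18.6 and 18.6 CPM in CD11cint libraries, 12.5, 18.7, 13.2 and 12 CPM in March1-/- B cells and 56.9, 58.2, 55.2 and 56.4 CPM in WT B cells. The difference was −1.62 ± 0.12 from WT B (edgeR adjusted p = 4.20e-09) and 0.39 ± 0.12 from March1-/- B (edgeR adjusted p = 0.0202). Entpd4, a nucleoside diphosphatase gene, was at 35.1, 33.9, 39.3 and 39.7 CPM in CD11cint libraries, 28.9, 28.5, 27.2 and 31.8 CPM in March1-/- B cells and 60.3, 54, 60.1 and 66 CPM in WT B cells (−0.70 ± 0.10 from WT B and 0.35 ± 0.10 from March1-/- B, edgeR adjusted p = 2.83e-05 and 0.0133).

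Entpd4, Gm16867, Entpd4b and Gm27177 lie beside each other on chromosome 14, between positions 69337174 and 69683286. Entpd4 and Entpd4b resemble each other closely, and each of the 4 shares 25.4 to 35.9% of its exon bases with a gene on the opposite strand, so the split of reads among them is uncertain. Trabd2b lay at 1.37 to 2.49 CPM in CD11cint cells, and its difference from WT B (−0.68 ± 0.19, edgeR adjusted p = 0.0187) was not called without CD11cint library 1 or WT B library 2 or 4 (edgeR adjusted p up to 0.0802).

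**Figure D4:**
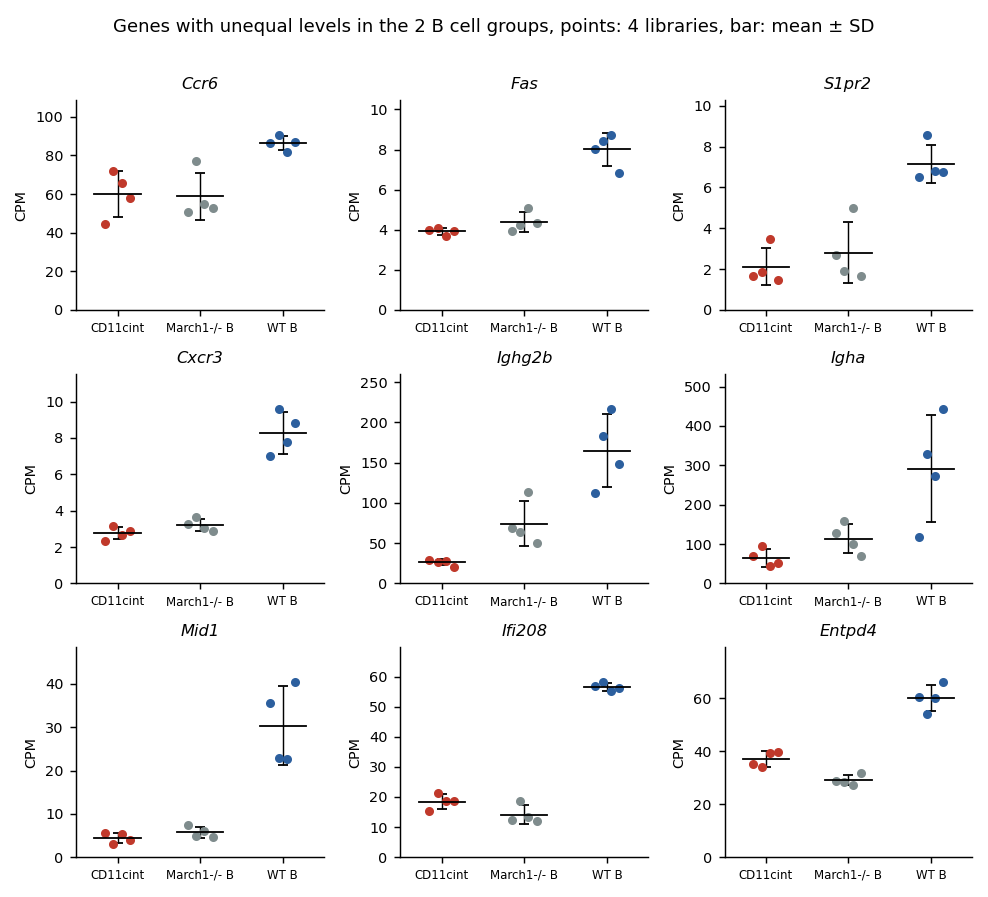
Level in CPM (y axis, from 0) of 9 genes in the 4 CD11cint, 4 March1-/- B and 4 WT B libraries, with mean ± SD. WT B libraries are above all others for Ccr6, Fas, S1pr2, Cxcr3, Mid1, Ifi208 and Entpd4, and for Entpd4 the CD11cint libraries also lie above the March1-/- B libraries.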

How the data were processed

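RNA from sorted spleen cells of C57BL/6 mice was sequenced in 20 libraries of 5 groups. The authors deposited whole-number counts of reads per gene, not normalised. Tools named in the submitters' processing notes are STAR, Subread, limma, edgeR, CASAVA and FastQC, with builds GRCm38 and mm10; strand settings are not given in the sources used here. Lane tables, 2 per library, summed to the series table in all 566760 cells. Of 28338 gene identifiers, 28290 matched GENCODE M21, and the other 48 held 0.0414% of counts. The 3 count floor covers counting error only.

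Genes were kept with filterByExpr (18710, with 99.9459% of counts), scaled by TMM and compared by the quasi-likelihood F test of edgeR 4.0.16 (R 4.3.3) in 1 fit of 20 libraries, with Benjamini-Hochberg adjustment over all genes tested and a threshold of 0.05. The fit left 15 residual degrees of freedom at a common biological coefficient of variation of 10.91%. Standard errors were derived from the F statistic. CPM values used TMM-scaled library sizes. Summary counts left out chromosome 8. Summaries and figures used Python 3.11.15, pandas 2.3.3, numpy 2.4.6 and matplotlib 3.10.9.

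The comparison and the 37 gene lists were chosen with earlier results of these data known. Genes were named as list members, or as the 12 largest rises and 12 largest falls among protein-coding genes called with the same sign in both comparisons (mean of at least 5 CPM, no overlap). The largest with opposite signs, and up to 6 called against WT B and in March1-/- B against WT B alone, were named likewise. Trabd2b and Gm27177, outside that rule, were named after their values were seen. Some genes that the rule selects are not reported here.

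Deviations from group means correlated between same-numbered CD11cint and March1-/- B libraries (0.503, 0.213, 0.243 and 0.407), so these numbers were taken as pairs. Between CD11cint and WT B libraries they were −0.0273, 0.132, −0.0268 and 0.186, and the numbers were not taken as pairs. Alternatives were DESeq2 1.42.0, limma-voom (limma 3.58.1), RLE scaling, no filter, smaller fits, the replicate block, chromosome 8 kept and each library left out. A block among the March1-/- libraries, and leaving out the 3 March1-/- libraries numbered 1, were chosen after seeing the data.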

Additional observations from a re-analysis of the deposited data

Results flagged for a closer look

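Of 272 sets of 4 libraries of 1 group, for genes named here, 23 had a library set apart from the other 3 by a gap above Dixon's critical value, which chance alone gives in about 1 of 20 sets. CD11cint library 1 was above the others of its group for Ighm at 7449 CPM (6096 to 6276 in the others), S1pr3 at 225 CPM (198 to 200 in the others), Gml at 7.58 CPM (4.42 to 4.68 in the others) and Cnbd2 at 224 CPM (151 to 163 in the others). CD11cint library 1 was below the others of its group for Cr2 at 2493 CPM (3262 to 3418 in the others), Myof at 296 CPM (339 to 347 in the others) and Maml2 at 58.8 CPM (74.3 to 76.5 in the others). CD11cint library 2 was above the others of its group for Sqle at 13.3 CPM (10.3 to 10.6 in the others). CD11cint library 2 was below the others of its group for Pld4 at 291 CPM (321 to 324 in the others). CD11cint library 4 was above the others of its group for Cd55 at 129 CPM (124 to 125 in the others) and Endou at 3.64 CPM (1.76 to 1.88 in the others). CD11cint library 4 was below the others of its group for Itgb7 at 28.2 CPM (42 to 44.6 in the others). WT B library 1 was above the others of its group for Cd86 at 56.4 CPM (49.2 to 49.5 in the others) and Cd81 at 164 CPM (139 to 141 in the others). WT B library 1 was below the others of its group for Jchain at 141 CPM (319 to 351 in the others), Itgam at 7.78 CPM (10.1 to 10.5 in the others), H2-Ob at 572 CPM (647 to 651 in the others) and Sspn at 5.86 CPM (7.71 to 7.73 in the others). WT B library 2 was above the others of its group for S1pr2 at 8.56 CPM (6.5 to 6.79 in the others). WT B library 3 was above the others of its group for Spic at 4.94 CPM (3.47 to 3.63 in the others) and Ighg1 at 31.6 CPM (18.9 to 20.9 in the others). WT B library 3 was below the others of its group for Cd74 at 5961 CPM (6083 to 6096 in the others). WT B library 4 was above the others of its group for Neil1 at 25.1 CPM (21.2 to 21.7 in the others).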

How the results depend on the processing

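Of 125 genes named and called against WT B, 105 were called in all 21 other settings, 20 lost the call in at least 1, and none of the 136 genes named and tested changed sign. Another scaling, DESeq2, limma-voom, no filter and chromosome 8 kept left the counts within 1.5 times, except that DESeq2 called 653 genes higher in March1-/- B against WT B.

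A fit of the 2 compared groups called 596 genes higher against WT B and 2888 against March1-/- B (1306 higher), with 1302 of the same sign in both (498 higher). A fit of the 12 CD11cint and B cell libraries called 315 against WT B alone. With the replicate block over all 5 groups, 3598 genes were called against WT B (1664 higher), 1369 higher with the same sign in both, 10 with opposite signs, 731 against WT B alone, 1195 in March1-/- B against WT B (604 higher) and 1 follicular gene higher. The block among the March1-/- libraries gave 3839 (1672 higher, 2167 lower), 2985 of the same sign (1386 higher), 10 with opposite signs, 844 against WT B alone and 1338 (651 higher, 687 lower) in March1-/- B against WT B. Without the 3 March1-/- libraries numbered 1, 9 marginal zone genes were called higher. The cause was not tested.

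With each library left out, 638 to 1365 genes were called higher against WT B, 556 to 1149 higher with the same sign in both, 3 to 7 with opposite signs and 267 to 623 against WT B alone. March1-/- B against WT B had 500 to 1067 genes called (222 to 532 higher, 262 to 535 lower), and marginal zone genes called higher numbered 9 to 14. At 3 counts, or 0.0916 to 0.133 CPM, presence could not be told from counting error.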
